A study of Mus musculus with 24 samples.

Results

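*Ngp*, *Camp*, *Ltf*, *Lcn2*, *S100a8* and *S100a9* are 6 mouse genes whose products are stored in the granules or the cytosol of neutrophils. They were described here in cultured macrophages. The genes were selected on their levels across the 6 groups of these same libraries, with the measured values known, so their levels and fold changes are given as a description and carry no test. They are 6 of the 56884 genes in the count table, and all 6 were among the 13679 genes that passed the filter on low counts. *Camp* passed that filter through 4 libraries of M0 and 2 of M2, and through no library of the other groups.

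The study grew macrophages from the bone marrow of wild-type C57BL/6J mice, 9-week-old females by the study's methods, with the growth factor M-CSF, and sequenced the RNA of the whole culture. Cells of 4 mice, numbered 1, 2, 4 and 5, each went into 6 conditions, which gave 24 libraries. The design asks how stress treatments alter the response of macrophages to IL-4 and IL-13, and whether the compound ISRIB changes the effect of oligomycin.

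M0 cells received no cytokine. M2 cells received IL-4 and IL-13, each at 20 ng/ml, for 24 h. The other 4 groups had an inhibitor for 1 h beforehand and then the same cytokines with the inhibitor still present for 24 h. Tunica cells had tunicamycin at 5 µg/ml, which blocks N-linked glycosylation in the endoplasmic reticulum. Sal003 cells had Sal003 at 10 µM, which slows removal of the phosphate from the translation factor eIF2α. The remaining pair of groups both had 1 µM oligomycin, an inhibitor of ATP synthase in mitochondria, and 1 of them also had ISRIB at 1 µM, which opposes the integrated stress response through eIF2B. The labels differ on which. Sample titles and treatment labels place ISRIB in the libraries of the Oligo columns. Library names and replicate labels place it in those of the Oli_ISR columns. These 2 groups are therefore called Oligo and Oli_ISR after their columns, and which held ISRIB was not inferred from their values. The study reports a partial return of the cytokine response with ISRIB. The group means of all 6 genes in Oli_ISR lay between those of Oligo and M2. All 6 were also lower in M2 than in M0, so this order is not read as a return of the cytokine response.

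Reads counted on genes ranged from 17768551 to 19883716 in M0, from 16238727 to 19592076 in M2 and from 17230982 to 20316948 in Tunica. The ranges were 18674060 to 20547790 in Sal003, 18640294 to 20368244 in Oligo and 18514993 to 26725278 in Oli_ISR. Levels are in counts-per-million (CPM), and at the lowest depth a count of 0 allows up to 0.185 CPM. Intervals and floors in this text cover counting error only.

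Neutrophils make their granule proteins in sets while they mature in the bone marrow, so that primary, specific and gelatinase granules carry different proteins. The C/EBP factors, C/EBPε foremost, drive the genes of the specific granules. Macrophages make little of most of these proteins, although lipocalin 2 and the S100A8 and S100A9 pair can be induced in them by inflammatory signals.

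All 8 listed macrophage markers had reads in every library, and *Lyz2* had the most reads of them in each. Their summed level ran from 31100 to 36900 CPM in M0, from 11400 to 13800 in M2, from 16400 to 18100 in Tunica, from 13800 to 15600 in Sal003, from 8780 to 9610 in Oligo and from 13400 to 15300 in Oli_ISR. *Ly6g*, a defining surface marker of mouse neutrophils, had 7 reads in all and was at 0 in 18 of 24 libraries. By the macrophage markers the cultures were macrophages, as labelled. Most other genes listed for neutrophils had more reads than *Ly6g*. Of the 34 listed, 5 had 10 or fewer reads in all, *Ly6g* among them. *Csf3r* was at 110 to 231 CPM in the group means.

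Values for single libraries follow in the order of mice 1, 2, 4 and 5. *Ngp* encodes neutrophilic granule protein, a cathelicidin-related protein of the specific granules. Its level was 12.5, 19.3, 14.2 and 10.1 CPM in M0, and 9.3, 9.28, 10.8 and 6.62 CPM in M2. In Oli_ISR it was 4.82, 4.85, 5.82 and 5.73 CPM, and in Sal003 0.882, 1.24, 0.906 and 1.75 CPM. In Oligo it was 0.568, 0.47, 0.995 and 0.6 CPM, and in Tunica 0, 0.0476, 0 and 0 CPM, which is 1 read in 4 libraries. The groups thus ordered from M0 down through M2, Oli_ISR, Sal003 and Oligo to Tunica. Only M0 with M2, and Sal003 with Oligo, overlapped among neighbours in that order. In a bulk culture, fewer cells that carry such RNA and less RNA per cell cannot be told apart.

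*Camp* encodes the cathelicidin CRAMP, an antimicrobial peptide precursor of the specific granules, and it was the scarcest of the 6 in M0 per length. Its level was 1.22, 1.54, 1.45 and 0.745 CPM in M0, and 0.501, 0.605, 0.579 and 0.303 CPM in M2. Oli_ISR libraries had 0.487, 0.0551, 0.283 and 0.155 CPM, and in Sal003 0, 0.169, 0.0566 and 0.154 CPM. All 8 libraries of Oligo and Tunica were at 0. M0 lay above M2 without overlap, and the lower groups ran into each other at a depth of a few reads.

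*Ltf* encodes lactoferrin, an iron-binding protein of the specific granules. Its level was 12.6, 14, 11.3 and 8.5 CPM in M0, and 8.86, 9.48, 10.5 and 5.71 CPM in M2. In Oli_ISR it was 3.25, 4.79, 5.99 and 6.19 CPM, and in Sal003 0.882, 0.733, 2.38 and 1.65 CPM. In Oligo it was 0.616, 0.753, 0.995 and 0.75 CPM, and in Tunica 0.0513, 0, 0.0567 and 0 CPM. The order of the groups was that of *Ngp*. M0 with M2, M2 with Oli_ISR, and Sal003 with Oligo overlapped, whereas Oli_ISR stood clear of Sal003, and Oligo of Tunica.

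*S100a8* encodes the smaller subunit of calprotectin, a calcium-binding and zinc-binding protein of the neutrophil cytosol. Its level was 8.34, 11.9, 9.17 and 7.21 CPM in M0, and 6.52, 5.14, 5.74 and 2.97 CPM in M2. Oli_ISR libraries had 2.76, 2.53, 3.39 and 3.37 CPM, and in Sal003 1.45, 1.24, 1.7 and 1.96 CPM. In Oligo it was 0.852, 0.282, 0.89 and 0.4 CPM, and in Tunica 0.0513, 0.19, 0 and 0.102 CPM. The same order held, and M2 with Oli_ISR was the only neighbouring pair of groups that overlapped.

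*S100a9* encodes the partner subunit of calprotectin. Its level was 16.8, 27.2, 17.6 and 11.7 CPM in M0, and 12.8, 13.3, 13 and 6.74 CPM in M2. In Oli_ISR it was 7.37, 6.89, 8.09 and 9.02 CPM, and in Sal003 1.51, 2.14, 3.17 and 2.47 CPM. In Oligo it was 1.8, 1.22, 1.78 and 0.899 CPM, and in Tunica 0, 0.0476, 0 and 0 CPM. The order was again that of *Ngp*, with the same overlapping neighbours as *Ltf*.

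*Lcn2* encodes lipocalin 2, which binds bacterial iron carriers and is stored in specific granules, and which many other cells secrete under inflammatory stimulation. Its level was 4.78, 7.16, 5.85 and 4.37 CPM in M0, and 3.4, 4.14, 3.63 and 1.94 CPM in M2. Oli_ISR libraries had 2.49, 1.98, 2.71 and 3.41 CPM, and in Sal003 1.66, 1.52, 1.7 and 3.45 CPM. In Oligo it was 1.28, 1.03, 1.73 and 1.2 CPM, and in Tunica 732, 933, 773 and 806 CPM. Tunica, the lowest group for the other 5 genes (with Oligo, also at 0, for *Camp*), was the highest for *Lcn2* and lay far above every other library. M0 followed and stood clear of M2, and M2, Oli_ISR, Sal003 and Oligo each overlapped the next.

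**Figure D1:**
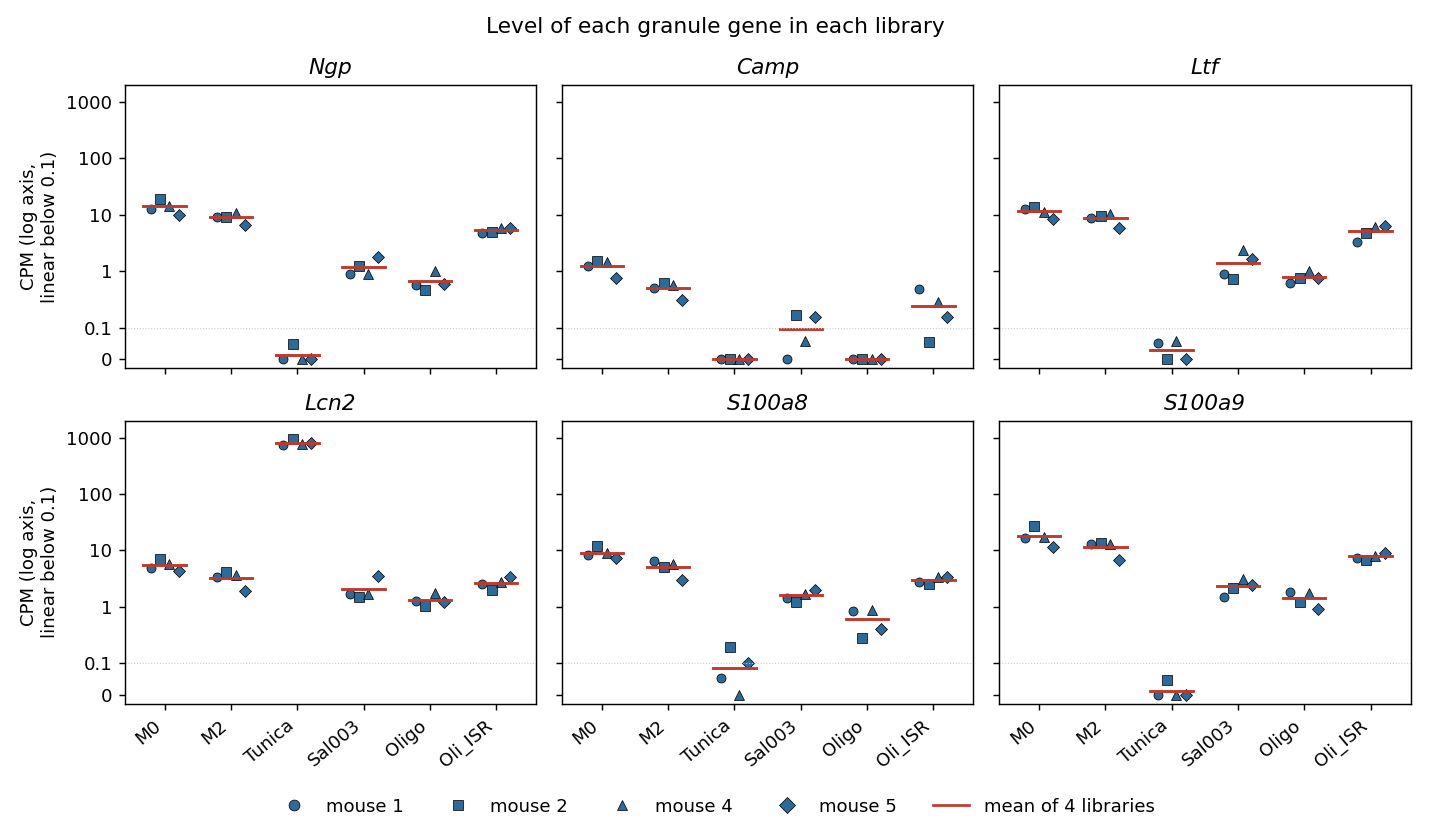
Level of each of the 6 genes in CPM (vertical axis, linear near 0 and logarithmic above) in the 6 groups. Points are the libraries of 4 mice and the line is the group mean; *Lcn2* in Tunica, at 732 to 933 CPM, stands apart, while the other 5 genes are at or near 0 there.

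Between genes, levels were compared per length, as transcripts-per-million (TPM) computed from the counts and the exon length. In M0 the mean was 68.6 ± 20.2 TPM for *S100a9* (SD, n = 4), 49.2 ± 10.8 for *Ngp* and 44.6 ± 7.18 for *S100a8*. It was 15.7 ± 2.71 TPM for *Ltf*, 10.1 ± 1.72 for *Lcn2* and 6.81 ± 1.74 for *Camp*. *S100a9* ranked 2514 of the 23158 genes with a read in M0. M2 and M0 had the same order of the 6 genes, with *S100a9* at 41 ± 11.1 TPM and *Camp* at 2.6 ± 0.697 TPM in M2. In Tunica *Lcn2* was at 1600 ± 167 TPM, rank 52 of 21499 genes with a read, and the next of the 6 was *S100a8* at 0.451 ± 0.424 TPM.

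The 6 comparisons between groups are given as log2 fold changes fitted by edgeR with their standard errors (SE). Tunica, Sal003, Oligo and Oli_ISR were all compared with the same 4 M2 libraries, so those comparisons share any deviation of M2. Some groups held 10 or fewer reads of a member in their 4 libraries. There the ratio of pooled counts per library size, with its exact 95% interval, replaces the fitted value. For other genes with so few reads, either that ratio is given or a fitted value is printed beside the reads. Against 0 reads, the fold is a lower bound that counts 3 reads over the group.

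M2 against M0 asks what the cytokines alone did. All 6 genes were lower in M2 in 4 of 4 mice. The log2 fold change was -1.28 (SE 0.38) for *Camp*, -0.84 (SE 0.21) for *S100a8*, -0.73 (SE 0.21) for *Lcn2*, -0.67 (SE 0.21) for *S100a9*, -0.64 (SE 0.17) for *Ngp* and -0.42 (SE 0.21) for *Ltf*. For *Ngp*, *Ltf* and *S100a9* the ranges of the groups overlapped although each mouse went down. Of all genes tested, 24.6% were lower in M2 without overlap and 6.08% were called lower.

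Tunica against M2 asks what stress of the endoplasmic reticulum did to cytokine-treated cells. *Lcn2* rose by a log2 fold change of 7.93 (SE 0.17), from 244 to 63294 reads, and the ratio within a mouse ran from 213 to 415. The other 5 genes moved the opposite way. *Ngp* went from 665 reads to 1, a ratio of 706 (interval 126 to 27900), and *S100a9* from 851 reads to 1, a ratio of 903 (interval 162 to 35700). *Ltf* went from 640 reads to 2, a ratio of 340 (interval 93.6 to 2810), and *S100a8* from 377 to 7, a ratio of 57.2 (interval 27.5 to 143). *Camp* went from 37 reads to 0 and was at least 13.1-fold lower. Of all genes tested, 36.1% were lower and 37.8% higher in Tunica without overlap, while 14% were called lower and 8.56% higher. The only read of *Ngp* and the only read of *S100a9* in Tunica came from mouse 2, so without that mouse both genes were at 0 in the group. Of the 7 reads of *S100a8* in Tunica, 4 came from the same mouse, and without it the log2 ratio was -6.61 in place of -5.84.

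Sal003 against M2 asks what holding eIF2α in its phosphorylated form did. The log2 fold change was -2.90 (SE 0.23) for *Ngp*, -2.62 (SE 0.27) for *Ltf*, -2.31 (SE 0.26) for *S100a9* and -1.68 (SE 0.25) for *S100a8*, each lower in 4 of 4 mice without overlap of the groups. Of all genes tested, 24.3% were lower in Sal003 without overlap and 5.04% were called lower. *Camp* had 7 reads against 37, a ratio of 5.35 lower (interval 2.35 to 14.2). *Lcn2* differed least, at -0.66 (SE 0.26), and was lower in 3 of 4 mice. In mouse 5 it was higher with Sal003, at 1.78 times its M2 level.

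Oligo against M2 gave log2 fold changes of -3.78 (SE 0.25) for *Ngp*, -3.47 (SE 0.29) for *Ltf*, -3.07 (SE 0.29) for *S100a8*, -3.01 (SE 0.28) for *S100a9* and -1.35 (SE 0.28) for *Lcn2*. *Camp* was at least 13.7-fold lower. All 6 were lower in 4 of 4 mice, and in none of the 6 did the groups overlap. Of all 13679 genes tested, 31.5% were lower in Oligo without overlap and 7.96% were called lower at the limits given further on, so a lack of overlap was common.

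Oli_ISR against M2 gave smaller differences, -0.77 (SE 0.22) for *Ltf*, -0.76 (SE 0.18) for *Ngp*, -0.76 (SE 0.23) for *S100a8*, -0.55 (SE 0.22) for *S100a9*, -0.30 (SE 0.24) for *Lcn2* and -1.06 (SE 0.50) for *Camp*. *Ngp* and *Camp* were lower in 4 of 4 mice. The other 4 were lower in 3 of 4 mice and higher in mouse 5, whose ratios to M2 were 1.09 for *Ltf*, 1.13 for *S100a8*, 1.34 for *S100a9* and 1.75 for *Lcn2*. Mouse 5 was the mouse with the lowest M2 level of all 6 genes.

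Oligo against Oli_ISR asks what ISRIB changed in oligomycin-treated cells, with the reservation on its label given above. The difference was -3.02 (SE 0.26) for *Ngp*, -2.71 (SE 0.30) for *Ltf*, -2.46 (SE 0.28) for *S100a9*, -2.32 (SE 0.31) for *S100a8* and -1.05 (SE 0.29) for *Lcn2*. *Camp* was at least 6.44-fold lower in Oligo, a bound of -2.69 on the log2 scale. Mouse 1 held 9 of the 19 *Camp* reads in Oli_ISR, and without it the bound was -1.70. Each gene was lower in Oligo in 4 of 4 mice, and the groups did not overlap for any of the 6. Of all genes tested, 21.1% were lower in Oligo without overlap and 1.48% were called lower.

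How the 5 genes other than *Lcn2* moved relative to each other was read from their pooled reads. Their summed level was 54.4 CPM in M0 (range 38.3 to 73.9, n = 4), 34.7 in M2 (22.3 to 40.6), 21.5 in Oli_ISR (18.7 to 24.5), 6.61 in Sal003 (4.72 to 8.21), 3.47 in Oligo (2.65 to 4.66) and 0.137 in Tunica (0.0567 to 0.286). Of the reads of the 5, *S100a9* had 33.6% in M0 (exact Clopper-Pearson interval 32.1% to 35%), 33.1% in M2 (31.3% to 35%) and 36.6% in Oli_ISR (34.3% to 38.9%). Its share was 35% in Sal003 (30.7% to 39.4%) and 41.3% in Oligo (35.5% to 47.3%). In these 5 groups the share of *S100a9* thus moved far less than the sum. In Tunica it was 1 of 11 reads, 9.09% (0.23% to 41.3%).

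Sal003 departed from M2 in *S100a8*, which held 24.1% of the 489 reads there (interval 20.4% to 28.2%) against 14.7% of 2570 reads in M2 (13.3% to 16.1%). *Ngp* went the other way, from 25.9% in M2 (24.2% to 27.6%) to 18.2% in Sal003 (14.9% to 21.9%), and was likewise at 18.9% in Oligo (14.5% to 23.9%). Pooled reads of *S100a9* per read of *S100a8* were 1.99 in M0, 2.26 in M2, 1.45 in Sal003, 2.37 in Oligo and 2.61 in Oli_ISR. Within a mouse the ratio ran from 1.04 to 1.87 in Sal003 and from 1.97 to 2.58 in M2, without overlap, while M0, at 1.63 to 2.29, overlapped both. In Tunica 7 of the 11 reads were of *S100a8*, a share of 63.6% with an interval of 30.8% to 89.1%, and the pooled ratio was 0.143, from 1 read against 7.

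Spread between mice was wider for these genes than for most. The biological coefficient of variation fitted by edgeR was 18.1% for *Ngp*, 22.3% for *Camp*, 23.4% for *Ltf*, 16.1% for *Lcn2*, 20.1% for *S100a8* and 23.2% for *S100a9*, against a median of 7.06% over all genes tested. No comparison was made with genes of a like level, so a wide spread is not called particular to these genes. In M0 mouse 2 was the highest and mouse 5 the lowest for all 6 genes, and in M2 mouse 5 was again the lowest for all 6. Over the 24 libraries the correlation of log2 CPM was 0.985 for *Ngp* with *Ltf*, 0.984 for *Ngp* with *S100a9*, 0.973 for *S100a8* with *S100a9* and -0.632 for *Ngp* with *Lcn2*. The libraries fall into 6 groups and share 4 mice, so these values mostly describe the differences between groups. After removal of group means, over the 20 libraries other than Tunica, it was 0.842 for *Ngp* with *Lcn2*, 0.786 for *S100a8* with *S100a9* and 0.07 for *Camp* with *Ltf*. The negative value for *Lcn2* rests on Tunica, since in the other 5 groups the means of both genes had the same order and the genes also varied together from mouse to mouse.

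For each gene, the 3 tested genes outside the members with the most similar pattern over the 24 libraries were taken. They came from 11848 candidates with a mean of at least 1 CPM. Among those nearest to *Ngp* were *Cxcl14* (r = 0.965) and *Padi2* (0.961). *Cxcl14* averaged 10.2 CPM in M0, 7.12 in M2, 2.78 in Oli_ISR, 1.16 in Sal003, 1.03 in Oligo and 0.0773 in Tunica. *Padi2* (0.969), *Pdgfb* (0.965) and *Gprc5c* (0.961) were nearest to *Ltf*, and *Tgfbi* (0.972) and *Pex6* (0.971) were among those nearest to *S100a9*. The ranking picks similar order and not similar size, since *Pex6* only went from 98.9 CPM in M0 to 56.2 in Tunica.

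Outside the members, those nearest to *S100a8* were *Fuca1* (0.971), *Gm15513* (0.969) and the complement gene *C1qb* (0.966). Those nearest to *Camp* were *Polr3gl* (0.938), *Kifc3* (0.935) and *Smagp* (0.933). For *Lcn2* they were *Itm2c* (0.989), *Slc35g1* (0.984) and *Stx5a* (0.982). *Slc35g1* averaged 4.26 CPM in M2 and 102 in Tunica. The libraries behind these values share groups and mice.

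The other neutrophil genes came from a list of 34, made of 6 azurophil granule genes, 10 specific or gelatinase granule genes and 18 surface or cytosol genes. Of these, 18 passed the filter on low counts, 2 (*Stfa2* and *Stfa3*) had no read and 5 had 10 or fewer reads in all. A gene was called higher or lower at a Benjamini-Hochberg adjusted p under 0.05 over all genes tested and a change of at least 2.5-fold.

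In M2 against M0, 2 of the 18 were called higher and 5 lower, beside 5.39% and 6.08% of all genes tested. In Tunica against M2, 4 were called higher and 9 lower, beside 8.56% and 14% of all genes. In Sal003 against M2 it was 3 higher and 8 lower, beside 2.68% and 5.04%. The lower calls outnumbered the higher ones in each of these comparisons.

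In Oligo against M2, 2 were called higher and 13 lower, beside 4.79% and 7.96% of all genes. In Oli_ISR against M2 it was 1 higher and 6 lower, beside 2.94% and 5.02%, and in Oligo against Oli_ISR 1 higher and 2 lower, beside 1.14% and 1.48%. The median log2 fold change of the 18 was -0.83 in M2 against M0, -1.25 in Tunica, -1.11 in Sal003, -2.05 in Oligo and -0.86 in Oli_ISR, each against M2, and -0.85 in Oligo against Oli_ISR, with genes at 0 placed at their bound. Over all genes tested it was -0.02, 0.01, 0, 0.01, 0 and 0 in that order. The genes of a list are not independent of each other, and the list was chosen with earlier results known, so nothing is called particular to it.

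The lower calls in Oligo against Oli_ISR rested on few reads. The 2 lower calls were *Cd177* (-2.26, SE 0.45, adjusted p 0.00023, 10 reads against 49, lower in 4 of 4 mice) and *Cxcr2* (-1.72, SE 0.43, adjusted p 0.0021, 16 reads against 53, lower in 3 of 4 mice). Both were named after their values were seen. With only these 2 groups fitted, neither passed the filter on low counts, and lower calls were 0 of 9 genes tested. Without mouse 1 the count of lower calls was 5, without mouse 4 it was 1 and without mouse 5 it was 4. With the mouse as a block, *Fpr2* was also called lower, as was *Fpr1* in Oli_ISR against M2. DESeq2 called 2 surface or cytosol genes lower in Oligo against Oli_ISR, where edgeR called 1. The 1 higher call in Oli_ISR against M2 became 2 without mouse 1 or without mouse 4.

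Primary granule genes were scarce. Only *Mpo*, for myeloperoxidase, of the 6 azurophil genes was tested, with 352 reads in 24 libraries, while *Elane* had 84, *Prtn3* 71 and *Ctsg* 49. The summed level of the 6, in the order of mice, was 3.61, 4.21, 2.15 and 3.13 CPM in M0 and 2.62, 4.69, 4.58 and 2.25 in M2. It was 0.467, 0.338, 0.226 and 0.566 CPM in Sal003, 0.331, 0.0941, 0.0524 and 0.45 in Oligo, 0.108, 0.386, 0.17 and 0.387 in Oli_ISR and 0.0513, 0.143, 0.113 and 0.255 in Tunica. M0 and M2 overlapped, and both stood clear above the 4 inhibitor groups.

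In Oli_ISR, where the members differed from M2 by -1.06 to -0.30 on the log2 scale, *Mpo* had 14 reads against 164 in M2 (log2 fold change -3.62, SE 0.49, adjusted p 7.1e-07, lower in 4 of 4 mice). In Sal003 against M2 it was at -3.15 (SE 0.46, adjusted p 3.3e-06, 4 of 4 mice). In Oligo it had 6 reads against 164, a ratio of 30.4 lower (interval 13.7 to 84.1, adjusted p 4.8e-08), and in Tunica 5, a ratio of 34.8 lower (interval 14.6 to 109, adjusted p 3.1e-08), each in 4 of 4 mice. Between Oligo and Oli_ISR it was not called. The difference between *Mpo* and the members was not tested.

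Specific and gelatinase granule genes were tested in 7 of 10 cases. Of these 7, 6 were called lower in Tunica, 5 in Sal003, 7 in Oligo and 3 in Oli_ISR against M2, and 1 in Oligo against Oli_ISR. The shares of all genes tested called lower were 14%, 5.04%, 7.96%, 5.02% and 1.48% in that order. M2 against M0 had 1 called higher and 1 lower, beside 5.39% and 6.08% of all genes. Their summed level, in the order of mice, was 32.9, 31.2, 36.5 and 23.4 CPM in M0 and 34.3, 36.3, 39.1 and 29 in M2. Oli_ISR libraries had 12.5, 11.2, 12.7 and 11.2 CPM, in Sal003 9.55, 10, 9.68 and 8.55, in Oligo 6.01, 5.93, 5.71 and 5.6, and in Tunica 9.76, 13.1, 10.6 and 11.1. M0 and M2 overlapped, and Oligo was below every other library. *Mmp8* had the most reads of the 10 in every library.

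*Mmp8*, the neutrophil collagenase, averaged 15.2 CPM in M2 and was lower in 4 of 4 mice in each inhibitor group. Its log2 fold change against M2 was -2.50 in Oligo (SE 0.16, adjusted p 4.2e-13), -1.52 in Oli_ISR (SE 0.14, adjusted p 2e-09), -1.39 in Sal003 (SE 0.14, adjusted p 1e-08) and -1.41 in Tunica (SE 0.14, adjusted p 2.1e-09). The Tunica value lay near the 2.5-fold limit and was -1.27, not called, without mouse 4. *Mmp9*, the gelatinase, was at -1.81 in Oligo (SE 0.21, adjusted p 3.9e-08) and at -2.16 in Sal003 (SE 0.22, adjusted p 9.9e-09), lower in 4 of 4 mice in both. It was not called in Tunica (-0.5, adjusted p 0.019) or in Oli_ISR (-1.08, adjusted p 4.6e-05). In Tunica *Mmp8* had 448 reads against 1124 in M2, where *Ngp* had 1 against 665.

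*Hp*, for haptoglobin, was lower in M2 than in M0 (-2.33, SE 0.27, adjusted p 5.7e-08, 4 of 4 mice). It was lower again in Oligo (-2.32, SE 0.42, adjusted p 3.2e-05, 4 of 4 mice). In Tunica it was at -1.41 (SE 0.38, adjusted p 0.0016, 4 of 4 mice), a call that ended without mouse 1 (-1.16), mouse 4 (-1.29) or mouse 5 (-1.29). *Ltb4r1*, a leukotriene B4 receptor placed in the gelatinase list, was higher in M2, at 9.06 CPM against 0.53 in M0 (log2 fold change 4.07, SE 0.25, adjusted p 3.4e-13, 4 of 4 mice). It was lower than M2 by -5.11 in Tunica, -3.82 in Sal003, -3.96 in Oligo and -2.67 in Oli_ISR on the log2 scale, each in 4 of 4 mice with an adjusted p of at most 1.1e-10.

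Surface and cytosol genes went both ways, and *Csf3r*, the G-CSF receptor, had the most reads of the 18 in every library. *Fpr1* and *Fpr2*, receptors of formyl peptides, were lower in M2 than in M0 (-4.66, SE 0.28, adjusted p 2.5e-13, and -5.36, SE 0.26, adjusted p 5.1e-15). In Tunica against M2 they rose by 7.84 (SE 0.23, adjusted p 2.6e-20) and 7.13 (SE 0.24, adjusted p 6.4e-19), each in 4 of 4 mice. *Fpr1* thus went from 0.309 CPM in M2 to 73.6 in Tunica, in the direction of *Lcn2* and against *Ngp*. *Ifitm6* was also higher in Tunica, at 75.2 CPM against 2.1 (5.16, SE 0.14, adjusted p 1.1e-20, 4 of 4 mice), and *G0s2* had 293 reads against 4, a ratio of 69 (interval 26.7 to 255, adjusted p 1.4e-12, 4 of 4 mice).

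*Cxcr2*, the chemokine receptor of mature neutrophils, was higher in M2 than in M0 (2.91, SE 0.27, adjusted p 8.9e-10, 4 of 4 mice). In Tunica it had 1 read against 404 in M2, a ratio of 429 (interval 76.5 to 17000, adjusted p 9.7e-14, 4 of 4 mice). It was at -4.77 in Oligo, -3.89 in Sal003 and -3.05 in Oli_ISR against M2, each in 4 of 4 mice with an adjusted p of at most 7.2e-10. *Padi4* was lower in M2 than in M0 (-2.23, SE 0.17, adjusted p 2.4e-11, 4 of 4 mice) and higher in Sal003 than in M2 (1.41, SE 0.18, adjusted p 2.9e-07, 4 of 4 mice). Without mouse 2 the Sal003 value was 1.22 and was not called.

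The other higher calls among these genes were in the inhibitor groups. In Sal003 they were *Slpi* (1.94, SE 0.28, adjusted p 3e-06, 4 of 4 mice) and, named after its values were seen, *G0s2* with 27 reads against 4, a ratio of 6.67 (interval 2.33 to 26.2). *G0s2* had 164 reads in Oligo, a ratio of 36.9 (interval 14.1 to 137), and 132 in Oli_ISR, a ratio of 30.2 (interval 11.5 to 112). *Ifitm6* was higher in Oligo than in M2 (2.54, SE 0.16, adjusted p 3.9e-13) and than in Oli_ISR (1.59, SE 0.14, adjusted p 1.2e-09), each in 4 of 4 mice.

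**Figure D2:**
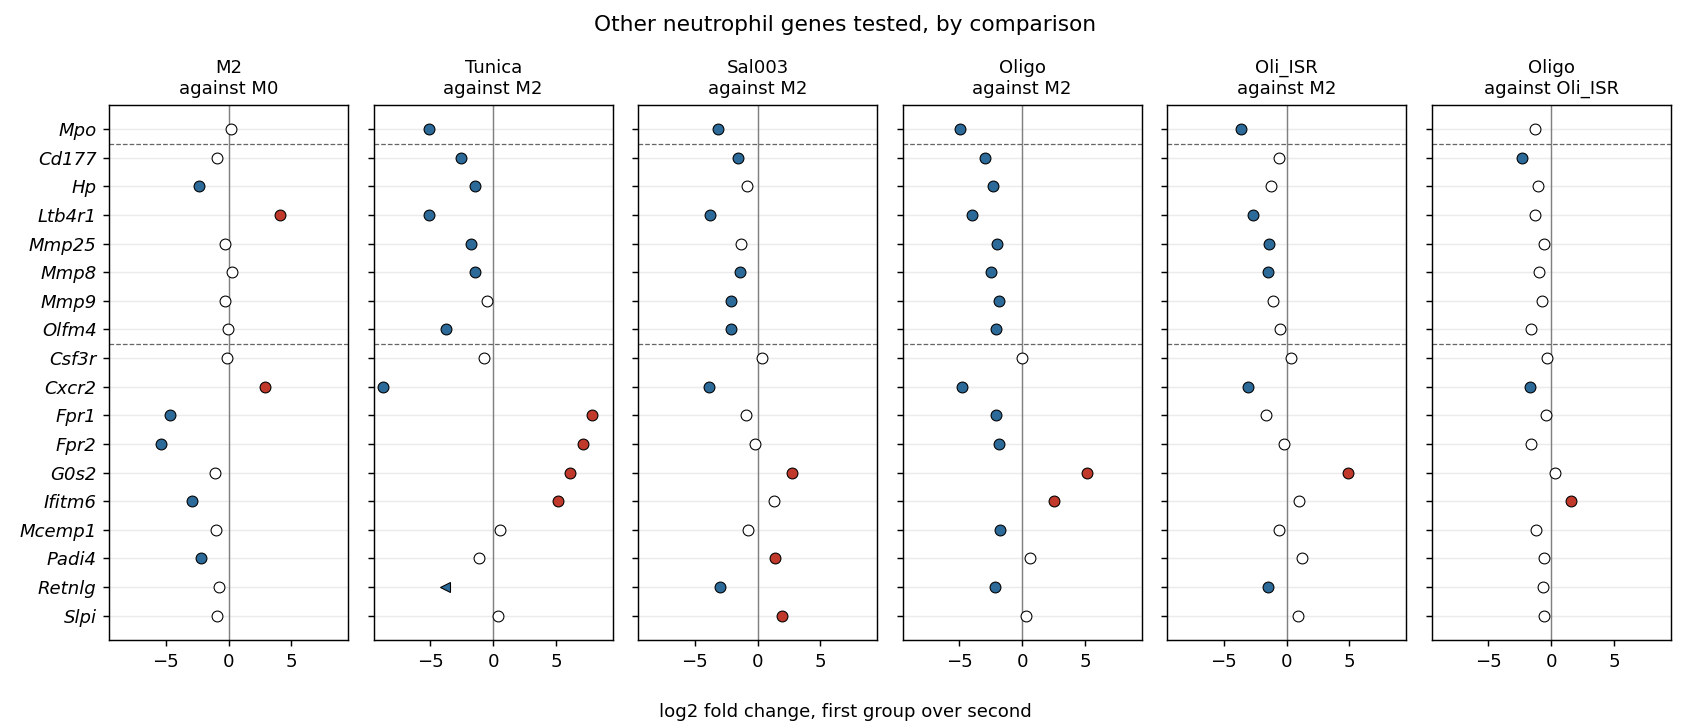
Log2 fold change (horizontal axis) of the 18 tested neutrophil genes outside the 6 members in the 6 comparisons; filled red points were called higher, filled blue points lower, open points were not called, and a triangle marks a bound. Dashed lines separate azurophil, specific or gelatinase, and surface or cytosol genes; in Oligo against M2 all 7 specific or gelatinase genes were called lower.

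Regulators of the granule genes were tested in 10 of 12 cases. M2 against M0 had 0 called higher and 2 lower, Tunica 2 higher and 1 lower, Sal003 0 and 1, Oligo 1 and 1 and Oli_ISR 0 and 1 against M2. Oligo against Oli_ISR had 0 called either way. Beside these, 5.39% of all genes tested were called higher and 6.08% lower in M2 against M0. Against M2 the shares were 8.56% and 14% in Tunica and 2.68% and 5.04% in Sal003. They were 4.79% and 7.96% in Oligo, 2.94% and 5.02% in Oli_ISR, and 1.14% and 1.48% in Oligo against Oli_ISR. DESeq2 gave the same counts, and at an unadjusted p under 0.05 edgeR gave 5 higher and 4 lower in Oligo against Oli_ISR. For the other counts of 0 higher, that unadjusted count was 2 in M2 against M0, 3 in Sal003 and 4 in Oli_ISR.

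*Cebpe*, for the factor of the specific granules, was at a low level, 1.38 CPM, in M2. Its log2 fold change against M2 was -1.48 in Sal003 (SE 0.27, adjusted p 5.2e-05), -1.42 in Oli_ISR (SE 0.26, adjusted p 5.8e-05) and -1.36 in Oligo (SE 0.26, adjusted p 5.5e-05), lower in 4 of 4 mice each. These calls ended without mouse 1 in Sal003 (-1.29), without mouse 4 in Oli_ISR (-1.31), and without mouse 1 (-1.28) or mouse 2 (-1.30) in Oligo. In Tunica it was at -0.66 (SE 0.24, adjusted p 0.016, lower in 4 of 4 mice) and was not called. Its mean of 0.864 CPM there was the highest of the 4 inhibitor groups, while 4 members were at their lowest in Tunica. *Cebpe* averaged 0.503 CPM in Oli_ISR and 0.531 CPM in Oligo, groups between which the members differed. The part of *Cebpe* in the members' levels was not tested.

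Of the other C/EBP genes, *Cebpa* and *Cebpd* were called in Tunica. *Cebpa* went from 490 CPM in M2 to 56.4 (-3.12, SE 0.08, adjusted p 3.9e-21) and *Cebpd* from 19.4 to 209 (3.44, SE 0.07, adjusted p 4.8e-23), each in 4 of 4 mice. *Nfkbiz*, which encodes IκBζ, a cofactor of NF-κB on the *Lcn2* gene, went from 7.05 CPM to 327 (5.54, SE 0.09, adjusted p 1.2e-24, 4 of 4 mice). It was also higher in Oligo than in M2 (1.69, SE 0.10, adjusted p 9.8e-14, 4 of 4 mice), where *Lcn2* was lower. *Nfkbiz* and *Cebpd* were both lower in M2 than in M0, at -4.18 (SE 0.09, adjusted p 1.6e-21) and -1.58 (SE 0.07, adjusted p 7.5e-16), each in 4 of 4 mice. The part of *Cebpa*, *Cebpd* and *Nfkbiz* in the levels of *Lcn2* and the other members was not tested.

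Receptors and partners of the products were tested in 7 of 7 cases. Tunica had 1 called higher and 3 lower, Sal003 1 and 2, Oligo 1 and 1 and Oli_ISR 1 and 2, each against M2. For all genes the shares were 8.56% and 14%, 2.68% and 5.04%, 4.79% and 7.96%, and 2.94% and 5.02% in that order. M2 against M0 and Oligo against Oli_ISR had 0 called by edgeR or DESeq2, with 1 higher and 2 lower, and 0 higher and 4 lower, at an unadjusted p under 0.05. *Lrp1*, a receptor of lactoferrin, went from 818 CPM in M2 to 107 in Tunica (-2.93, SE 0.11, adjusted p 4.4e-18, 4 of 4 mice). *Slc22a17*, a receptor of lipocalin 2, went from 84 reads in M2 to 5 in Tunica, a ratio of 17.8 (interval 7.34 to 56.3, adjusted p 1.5e-08, 4 of 4 mice), while its ligand gene *Lcn2* rose.

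*Slc22a17* was also lower than M2 in Oligo (-2.90, SE 0.38, adjusted p 3.1e-07), Sal003 (-2.45, SE 0.37, adjusted p 4.2e-06) and Oli_ISR (-1.73, SE 0.33, adjusted p 8.4e-05), each in 4 of 4 mice. *Bdh2*, whose product has been described as making a mammalian iron carrier bound by lipocalin 2, was the higher gene in all 4 inhibitor groups, by 1.79, 1.73, 1.76 and 2.08 on the log2 scale in Tunica, Sal003, Oligo and Oli_ISR, in 4 of 4 mice each and with an adjusted p of at most 1.1e-05. *Tlr4*, *Bsg* and *P2rx7* were called in none of the 6 comparisons. *Ager*, for the receptor RAGE of S100 proteins, was lower in Tunica (-1.50, SE 0.29, adjusted p 4.5e-05), Sal003 (-1.52, SE 0.29, adjusted p 1e-04) and Oli_ISR (-1.34, SE 0.28, adjusted p 0.00026), each in 4 of 4 mice. Its call ended in Tunica without mouse 2 (-1.25) and in Oli_ISR without mouse 1 (-1.15) or mouse 2 (-1.10).

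Other S100 genes were tested in 6 of 12 cases. Tunica had 6 called lower and Oligo 3 lower against M2, beside 14% and 7.96% of all genes tested. None of the 6 was called higher in these comparisons by edgeR or DESeq2, nor at an unadjusted p under 0.05. The other 4 comparisons had 0 called by both tools, while at an unadjusted p under 0.05 edgeR gave 4 higher in M2 against M0, 4 lower in Sal003, 6 lower in Oli_ISR and 6 lower in Oligo against Oli_ISR. *S100a4* went from 17.6 CPM in M2 to 2.97 in Tunica (-2.57, SE 0.17, adjusted p 7.9e-13) and 3.14 in Oligo (-2.48, SE 0.17, adjusted p 2.4e-12), in 4 of 4 mice each. *S100a6*, with the most reads of them in every library, went from 282 to 74.7 CPM in Tunica (-1.92, SE 0.11, adjusted p 1.8e-14, 4 of 4 mice). *S100a13* in Tunica was at -1.34 (SE 0.13, adjusted p 1.4e-09, 4 of 4 mice), close to the limit, and was not called without mouse 1 (-1.23) or with no filter on low counts (-1.30). These genes fell in Tunica by far smaller factors than *S100a9*.

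Markers of other cells were summed to show what else moved. The 4 progenitor markers, *Kit*, *Cd34*, *Flt3* and *Myb*, had a mean sum of 5.2 CPM in M0, 8.08 in M2, 2.75 in Tunica, 1.84 in Sal003, 2.77 in Oligo and 2.62 in Oli_ISR. All 4 were tested, and those called lower numbered 2 in Tunica and 3 each in Sal003, Oligo and Oli_ISR against M2, and 1 in Oligo against Oli_ISR, with 1 called higher in M2 against M0. Among all genes, 14%, 5.04%, 7.96%, 5.02% and 1.48% were called lower in that order, and 5.39% higher in M2 against M0. The 1 higher was *Cd34*, and the lower ones against M2 were *Cd34* and *Flt3*, joined by *Myb* where there were 3, the last 2 named after their values were seen. In Oligo against Oli_ISR the lower one was *Cd34*. *Kit* was not called lower in any comparison, and it was higher than M2 in 4 of 4 mice in Oligo (1.11, SE 0.36, adjusted p 0.008) and in Oli_ISR (0.82, SE 0.36, adjusted p 0.06), short of a call in both. In Tunica *Kit* was at 0.34 (SE 0.38, adjusted p 0.43) and *Myb* at 0.35 (SE 0.26, adjusted p 0.23). *Cd34* had the most reads in M2 and *Kit* in most other libraries, and none of the 4 was at 0 in more than 1 library. *Cd34* had 380 reads in M2 and 6 in Tunica, a ratio of 67.2 (interval 30.6 to 184, adjusted p 2.7e-14, 4 of 4 mice). The part of progenitors in the members' levels was not tested.

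The 7 eosinophil, basophil and mast cell markers summed to 3.27 CPM in M0, 22 in M2, 0.572 in Tunica, 8.98 in Sal003, 4.61 in Oligo and 14.6 in Oli_ISR on average. *Siglecf* had the most reads in every M2, Sal003, Oligo and Oli_ISR library and made up 20.2 CPM of the M2 value, and *Epx* and *Fcer1a* were each at 0 in 20 of 24 libraries. Of the 2 tested, 1 was called higher in M2 against M0, beside 5.39% of all genes. Called lower were 2 in Tunica, 1 in Sal003, 2 in Oligo and 1 in Oli_ISR against M2, and 1 in Oligo against Oli_ISR. The shares of all genes called lower were 14%, 5.04%, 7.96%, 5.02% and 1.48% in that order. The other tested gene, *Prg2*, named after its values were seen, was the 1 called in Sal003 and in Oli_ISR. *Siglecf* was 3.54 higher in M2 than in M0 on the log2 scale (SE 0.17, adjusted p 4.4e-15, 4 of 4 mice), whereas the members were lower.

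None of the 4 lymphoid and 3 erythroid markers was tested, since their reads were too few. The lymphoid sum averaged 0.736 CPM in M0, 0.664 in M2, 0.0898 in Tunica, 0.203 in Sal003, 0.0847 in Oligo and 0.154 in Oli_ISR, with *Cd79a* the gene with the most reads in all and *Cd3e* at 0 in 21 of 24 libraries. *Hbb-bs* was at 0 in all 24 libraries, and *Hba-a1* was at 0 in 17. On average the lymphoid sum was higher in M0 and M2 than in the 4 inhibitor groups, with overlap between libraries.

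The 3 stromal markers, of which *Col1a1* had the most reads in every library, followed the mouse. Their sum in mice 1, 2, 4 and 5 was 74.1, 42.4, 48.1 and 9.89 CPM in M0, and 44.2, 24.8, 24.4 and 6.92 in M2. It was 9.45, 4.9, 6.3 and 1.27 CPM in Tunica, 23.2, 12.4, 13.5 and 3.6 in Sal003, 24.1, 12, 11.6 and 2.4 in Oligo and 23.6, 11.2, 12.5 and 3.41 in Oli_ISR. Mouse 5 was the lowest in each group and mouse 1 the highest. Called lower were 3 in Tunica and 1, *Col3a1*, in Sal003 against M2 (-1.76, SE 0.72, adjusted p 0.044, 4 of 4 mice). Among all genes, 14% were called lower in Tunica and 5.04% in Sal003. With the mouse as a block in the model, *Col3a1* was also called lower in Oligo (-1.35, SE 0.26, adjusted p 8e-05) and in Oli_ISR (-1.46, SE 0.27, adjusted p 6.2e-05), where without it the adjusted p was 0.082 and 0.07. All 3 genes were lower in 4 of 4 mice in M2 against M0 and in each inhibitor group against M2. The Sal003 call ended with DESeq2 (-1.78) and without mouse 1 (-1.60), mouse 2 (-1.86) or mouse 4 (-1.88). In Tunica those of *Col3a1* without mouse 2 (-2.22) and of *Dcn* without mouse 4 (-1.78) ended as well. The part of these other cells in the members' levels was not tested.

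Of the macrophage markers, 0 were called higher and 4 lower in M2 against M0, where DESeq2 also gave 0 higher and edgeR gave 0 at an unadjusted p under 0.05. Tunica had 3 higher and 3 lower against M2. The shares of all genes called higher and lower were 5.39% and 6.08% in M2 against M0, and 8.56% and 14% in Tunica. *Adgre1*, which encodes F4/80, was higher in Tunica, at 6680 CPM against 977 in M2 (2.77, SE 0.07, adjusted p 7.7e-21, 4 of 4 mice). *Csf1r*, for the M-CSF receptor, was lower, at 821 CPM against 3730 (-2.18, SE 0.07, adjusted p 1.5e-19, 4 of 4 mice). *Cd68* was lower at -1.35 (SE 0.06, adjusted p 1.3e-16, 4 of 4 mice), but fell short of the 2.5-fold limit without mouse 2 (-1.32) or with no filter on low counts (-1.31). *Fcgr1* was the 1 marker called higher in each of Sal003, Oligo and Oli_ISR, beside 2.68%, 4.79% and 2.94% of all genes. *Mertk* was lower in Tunica as well, at 19 CPM against 66 (-1.80, SE 0.10, adjusted p 6.7e-15, 4 of 4 mice).

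By position, 3 of the 6 genes lie on chromosome 9 of GRCm39, which the counts were made on. *Camp* (ENSMUSG00000038357) is at chr9:109676442-109678685 on the minus strand, *Ngp* (ENSMUSG00000032484) at chr9:110248815-110252086 on the plus strand and *Ltf* (ENSMUSG00000032496) at chr9:110848339-110871835 on the plus strand. *S100a8* (ENSMUSG00000056054) is at chr3:90567118-90578128 on the plus strand and *S100a9* (ENSMUSG00000056071) at chr3:90599931-90603071 on the minus strand. *Lcn2* (ENSMUSG00000026822) is at chr2:32274645-32278264 on the minus strand. No exon of the 6 overlapped an exon of another gene, and 0.0% of their 50-base stretches occurred in another gene.

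The 1195.4 kb from *Camp* to *Ltf* hold 50 other genes, of which 16 were tested. Their median log2 fold change was -0.16 in M2 against M0, -0.08 in Tunica, -0.01 in Sal003, -0.10 in Oligo and 0.01 in Oli_ISR against M2, and -0.03 in Oligo against Oli_ISR. Called were 2 higher and 1 lower in Tunica (*Cspg5*, *Kif9* and *Als2cl*), 1 lower in M2 against M0 (*Cspg5*) and 1 higher in each of Sal003, Oligo and Oli_ISR (*Prss46*), genes named after their values were seen. Among all genes, 8.56% were called higher and 14% lower in Tunica, and 6.08% lower in M2 against M0. Called higher in Sal003, Oligo and Oli_ISR were 2.68%, 4.79% and 2.94%. The median of the neighbours thus lay near that of all genes, although single neighbours were called higher or lower. Whether *Camp*, *Ngp* and *Ltf* moved with their region was not tested. *S100a8* and *S100a9* span 36 kb with no other gene between them.

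Because 5 of the genes moved together and *Lcn2* parted from them in Tunica, the 250 bases before the start of each gene were searched in the RefSeq promoter table, build GRCm38.p6, where 6 of 6 genes matched. The C/EBP type was TTNNGNAA, the composite of ATF4 and C/EBP was TGATGNAA, and the STAT6 type was TTC, any 4 bases and GAA, each on both strands. The composite and the C/EBP type end in the same letters, GNAA. The C/EBP type was in 5 of 6 members, all but *Camp*, and in 36.9% of all 32841 windows of that length. The composite was in 0 of 6 and in 3.45% of all windows. The STAT6 type was in 1 of 6, *Lcn2*, and in 5.85% of all windows. A match describes letters and is not a site, and a share of 36.9% of all windows makes the C/EBP letters common.

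The windows of *Ngp* (chr9:110419558-110419807, plus strand), *Ltf* (chr9:111019042-111019291, plus strand), *S100a9* (chr3:90695722-90695971, minus strand) and *Lcn2* (chr2:32387740-32387989, minus strand) are printed to set 3 genes lost in Tunica beside the 1 that rose. Each runs 5′ to 3′ toward the gene, and capitals mark motif matches on either strand.
Ngp: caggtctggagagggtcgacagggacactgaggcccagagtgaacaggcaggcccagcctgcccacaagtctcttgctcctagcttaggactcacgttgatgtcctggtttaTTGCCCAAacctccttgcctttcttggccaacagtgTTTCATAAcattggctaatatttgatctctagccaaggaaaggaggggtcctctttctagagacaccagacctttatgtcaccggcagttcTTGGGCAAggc
Ltf: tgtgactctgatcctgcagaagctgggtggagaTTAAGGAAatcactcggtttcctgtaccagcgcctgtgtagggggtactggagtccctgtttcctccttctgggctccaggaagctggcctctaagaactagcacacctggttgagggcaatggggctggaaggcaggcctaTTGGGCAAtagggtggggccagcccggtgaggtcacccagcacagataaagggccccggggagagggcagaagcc
S100a9: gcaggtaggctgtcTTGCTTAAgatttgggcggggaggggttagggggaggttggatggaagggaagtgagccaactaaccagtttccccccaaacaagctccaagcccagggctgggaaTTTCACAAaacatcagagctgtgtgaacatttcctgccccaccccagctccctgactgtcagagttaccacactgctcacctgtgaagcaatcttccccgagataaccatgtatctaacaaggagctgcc
Lcn2: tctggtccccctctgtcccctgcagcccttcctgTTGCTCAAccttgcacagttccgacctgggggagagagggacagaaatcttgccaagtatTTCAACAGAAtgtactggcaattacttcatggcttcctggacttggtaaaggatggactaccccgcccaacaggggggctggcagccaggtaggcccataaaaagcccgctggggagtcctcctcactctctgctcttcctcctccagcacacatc
The capitals in *Ngp* are C/EBP-type matches 138 to 131, 102 to 95 and 11 to 4 bases before the start, and those in *Ltf* 217 to 210 and 75 to 68. In *S100a9* they are 236 to 229 and 130 to 123 bases before the start. In *Lcn2* the C/EBP type is 216 to 209 and the STAT6 type 156 to 147 bases before the start. TTGGGCAA occurred in *Ngp* on both strands and in *Ltf*. *S100a8* had a match 117 to 110 bases before its start, and the *Camp* window had none of the 3 motifs.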

How the data were processed

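RNA-seq reads of 24 libraries were aligned to GRCm39 and counted per gene by the authors, with cutadapt 1.8, STAR 2.7 and HTSeq 0.9.1 as the study states. The deposited counts are raw reads per gene. The strand setting was not given in the sources used here. The deposited RSEM 1.2.31 table of TPM was not used, because its header has more names than its lines have cells. Non-gene totals, 12.74% to 15.23% of reads, were removed.

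The members and gene lists were chosen with earlier results of these data known. Of 100 listed symbols, 100 were matched, 1 through an older symbol.

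Counts were scaled by TMM in edgeR 4.0.16 (R 4.3.3), filtered with filterByExpr by group, and fitted in 1 quasi-likelihood model of 6 groups. The fit and the calls were tested on simulated data of 2 groups. Calls needed a Benjamini-Hochberg adjusted p under 0.05 over 13679 genes and a 2.5-fold change. Named were the members, at most 8 called genes of each list per comparison with a mean of at least 1 CPM in a compared group, and 3 genes similar to each member. DESeq2 1.42.0, upper-quartile scaling, no filter, another prior count, a 2-fold limit, fits of 2 groups, a mouse term and omission of each mouse were the alternatives.

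The mouse numbers were checked on residuals: the median correlation was 0.24 over 60 pairs of libraries of the same mouse (56 above 0.1) and -0.05 over 180 pairs of different mice (7 above 0.1). Replicates differed by more than sampling noise in 36 pairs, with a chi-square per gene of 2.19 to 35.9.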

Additional observations from a re-analysis of the deposited data

Results flagged for a closer look

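In each group of 4 libraries, the highest and the lowest level of each member were compared with the range of the group. Of 34 pairs of gene and group with any read, 4 held a library far from the other 3, and chance alone picks about 1 in 20 such groups.

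*Lcn2* in Sal003 was at 3.45 CPM in mouse 5, against 1.52 to 1.7 CPM in the other 3 mice. *S100a9* in M2 was at 6.74 CPM in mouse 5, against 12.8 to 13.3 CPM in the other 3. Mouse 5 was also the lowest M2 library for the other 5 members, so the comparisons with M2 in that mouse start from a lower level.

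*Ngp* in Tunica was at 0.0476 CPM in mouse 2 and at 0 in the other 3 mice, and *S100a9* in Tunica was likewise at 0.0476 CPM in mouse 2 and at 0 elsewhere. Each of these values is 1 read, so a library stood apart only by a count of 1 against 0.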

How the results depend on the processing

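The 36 fold changes of the members kept their direction in 343 of 343 alternative values. None moved by more than the spread between mice or the counting interval, but that limit could hardly be passed. Leaving out a mouse moves a mean difference by less than the spread between mice. Settings that kept all mice moved no member by more than 0.06 on the log2 scale. The count of 343 is therefore not read as a test of robustness. Under the replicate block, with mouse number as a term in the model, *Ngp* in M2 against M0 was -0.63 on the log2 scale beside -0.64. The block and the prior count give no other value for pairs with 10 or fewer reads, and *Camp* in Oli_ISR against M2 was filtered out when only those 2 groups were fitted. Without mouse 2 the log2 ratio of *S100a9* in Tunica against M2 was -7.70 in place of -9.82 and that of *Ngp* -7.41 in place of -9.46, since the only read was in that mouse and 0 was counted as 3. Beside these, only *S100a8* in Tunica without mouse 2 (-6.61 in place of -5.84) and *Camp* in Oligo against Oli_ISR without mouse 1 (-1.70 in place of -2.69) moved by over 1.5 times.

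Of 120 alternative counts of other neutrophil genes, 107 stayed within 1.5 times the reported count. With no filter, 32 of 34 genes were tested, and lower calls were 18 in Tunica, 14 in Sal003, 20 in Oligo and 11 in Oli_ISR against M2, and 5 in Oligo against Oli_ISR, since more genes entered. With only 2 groups fitted, lower calls in Oligo against Oli_ISR were 0 of 9 genes tested, as *Cd177* and *Cxcr2* did not pass the filter. At a 2-fold limit, higher calls in Oli_ISR against M2 were 2 and lower calls in Oligo against Oli_ISR were 4, as a looser limit admits more. With each mouse left out in turn, these 2 counts ran from 1 to 2 and from 1 to 5.

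Of 960 alternative values of 96 calls of named genes, 938 kept the call, 22 lost it and 0 reversed. The block by mouse ended no call of a listed gene and added 4: *Col3a1* lower in Oligo and in Oli_ISR against M2, *Fpr1* lower in Oli_ISR against M2 (-1.58, SE 0.63, adjusted p 0.036, 8 reads against 23) and *Fpr2* lower in Oligo against Oli_ISR (-1.55, SE 0.60, adjusted p 0.038, 8 reads against 24). It changed no other call.

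At this depth a group with few reads gives a bound or a wide interval and no size. Each group has 4 mice. In Oli_ISR, *Ltf*, *S100a8*, *S100a9* and *Lcn2* were lower than in M2 in 3 of 4 mice and higher in mouse 5. Labels differ on which oligomycin group held ISRIB, and it was not inferred from the values. RNA of whole cultures does not show which cells carried the reads.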
